A study of Mus musculus with 16 samples.

Results

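Chromatin accessibility was compared between mouse progenitors that lacked the Gata2 enhancer 77 kb upstream of its start site and expressed the GATA2 variant 9aa-Ins (hi-77-/- 9aa-Ins) and progenitors in which the enhancer was intact (hi-77+/+ empty). The comparison used 8 of the 16 ATAC-Seq libraries of the series, 4 in each group. From every library the 49000 most significant peaks on chromosomes 1 to 19 and X were kept. Peaks of all 16 libraries that shared at least 1 bp were merged into 90549 regions, of which 77227 had a peak in at least 1 of the 8 libraries. A region counted as opened where 4 of 4 libraries with 9aa-Ins but 0 of 4 from hi-77+/+ empty cells had a peak, and as closed in the reverse case. By this rule 5090 regions (5.62% of all) were opened and 2194 (2.42%) were closed, 7284 regions in total.

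The cells were fetal liver hematopoietic progenitors immortalized with HoxB8 and grown with β-estradiol. The hi-77+/+ empty cells carried the intact enhancer and an empty retroviral vector. The hi-77-/- 9aa-Ins cells carried the enhancer deletion on both alleles and a retrovirus for 9aa-Ins, a pathogenic human GATA2 variant in which 9 amino acids are inserted between the zinc fingers. The other hi-77-/- libraries, some with the empty vector (hi-77-/- empty, n = 4) and some with a retrovirus for GATA2 (hi-77-/- GATA2, n = 4), were read at the same regions. All cells were taken 3 d after infection. The study describes 4 biological replicates in the ATAC-Seq of each hi-77-/- group. The labels gave no separate cell lines within a genotype and did not say whether replicates were separate cultures. A difference between hi-77-/- 9aa-Ins and hi-77+/+ empty therefore combined the deletion, the variant, the vector insert and the cell line, which cannot be told apart, and p-values measured only the spread between these libraries.

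GATA2 is a zinc finger transcription factor that binds WGATAR motifs and is required by hematopoietic stem and progenitor cells. Its gene is controlled by distal enhancers, one of which lies upstream of the start site and raises Gata2 transcription in myelo-erythroid progenitors. ATAC-Seq uses a transposase that inserts adapters into accessible DNA, so that promoters, enhancers and insulators appear as peaks. ETS factors such as PU.1, together with RUNX1 and C/EBP factors, are known to act at myeloid enhancers, EBF1 acts in B-lineage cells, and CTCF marks insulators and chromatin loop anchors.

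Motifs of these factors were counted on both strands. The sequences printed here are the 150 bp around the summits of opened regions that held, within those 150 bp, 1 match of a motif whose share differed between the groups, and of closed regions that held a CTCF core. Each was the strongest such region whose 150 bp overlapped no exon of any annotated transcript on the chromosomes that were searched for printing. For C/EBP the first 2 are shown and for the CTCF core the first 3. They were read from the RefSeq copy of GRCm38.p6 (mm10), plus strand, and each is named by the gene with the nearest start site. Capitals mark the match. Opened regions were chosen for ETS (AGGAAGT or CGGAAGT), PU.1 (GAGGAAGT or GAGGAACT, which can overlap ETS), RUNX (TGTGGTT or TGCGGTT), C/EBP (TTGCGCAA or TTGCACAA), AP-1 (TGAGTCA or TGACTCA), EBF (TCCCNNGGG) and IRF (GAAANNGAA).
Tnfrsf17 (ETS), chr16:11317490-11317639: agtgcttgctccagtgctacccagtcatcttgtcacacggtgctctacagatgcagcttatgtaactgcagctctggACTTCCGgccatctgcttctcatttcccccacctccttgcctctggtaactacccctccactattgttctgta
Spin1 (PU.1), chr13:51072116-51072265: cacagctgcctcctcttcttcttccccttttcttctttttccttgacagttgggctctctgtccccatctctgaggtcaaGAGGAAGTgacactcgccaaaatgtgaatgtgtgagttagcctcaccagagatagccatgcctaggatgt
Tmprss2 (RUNX), chr16:97590670-97590819: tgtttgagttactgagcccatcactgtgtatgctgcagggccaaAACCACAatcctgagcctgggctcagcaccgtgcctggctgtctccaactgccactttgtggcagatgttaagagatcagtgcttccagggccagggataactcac
Elfn2 (C/EBP), chr15:78730410-78730559: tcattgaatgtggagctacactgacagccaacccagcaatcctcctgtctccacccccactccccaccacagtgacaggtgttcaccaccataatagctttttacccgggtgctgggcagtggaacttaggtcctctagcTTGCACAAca
Xrcc5 (C/EBP), chr1:72320900-72321049: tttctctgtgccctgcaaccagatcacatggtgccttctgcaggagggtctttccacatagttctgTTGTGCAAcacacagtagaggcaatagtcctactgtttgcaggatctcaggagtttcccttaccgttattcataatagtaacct
Sh2d4b (AP-1), chr14:40450929-40451078: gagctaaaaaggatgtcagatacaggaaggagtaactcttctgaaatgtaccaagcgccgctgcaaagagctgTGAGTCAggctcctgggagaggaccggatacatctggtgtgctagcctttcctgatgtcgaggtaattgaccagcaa
Ednrb (EBF), chr14:104005257-104005406: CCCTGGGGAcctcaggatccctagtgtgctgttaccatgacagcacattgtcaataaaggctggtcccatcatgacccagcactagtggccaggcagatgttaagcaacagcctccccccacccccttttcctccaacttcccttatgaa
Map3k1 (IRF), chr13:112001202-112001351: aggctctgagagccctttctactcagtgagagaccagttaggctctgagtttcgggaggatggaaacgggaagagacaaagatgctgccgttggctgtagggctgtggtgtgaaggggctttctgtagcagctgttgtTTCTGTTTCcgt
The closed regions held a CTCF core, AGGGGGC or AGGTGGC or the reverse complement of either.
Gramd1b (CTCF core), chr9:40391015-40391164: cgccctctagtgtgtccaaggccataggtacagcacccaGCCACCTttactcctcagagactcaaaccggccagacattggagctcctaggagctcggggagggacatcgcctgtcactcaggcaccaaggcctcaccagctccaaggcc
Pigk (CTCF core), chr3:152763724-152763873: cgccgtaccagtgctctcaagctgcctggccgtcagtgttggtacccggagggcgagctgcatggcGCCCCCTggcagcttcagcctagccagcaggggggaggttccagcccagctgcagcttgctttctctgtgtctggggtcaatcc
Nxt2 (CTCF core), chrX:142228547-142228696: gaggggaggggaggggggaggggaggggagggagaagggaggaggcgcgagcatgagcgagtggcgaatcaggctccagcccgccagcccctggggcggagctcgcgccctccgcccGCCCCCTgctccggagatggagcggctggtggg
The Tnfrsf17 region is in an intron of Tnfrsf17, the B-cell maturation antigen gene, 3.75 kb downstream of its start site. The Tmprss2 and Xrcc5 regions are also intronic. The Spin1, Elfn2, Sh2d4b, Ednrb and Map3k1 regions are intergenic, the last 192 kb upstream of Map3k1. Of the closed regions, those of Gramd1b and Nxt2 are promoter regions, and that of Pigk is intronic. A match describes the sequence and is not evidence of binding.

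The deleted enhancer and the expressed variant were checked first. In the 2000 bp centered 77 kb upstream of the Gata2 start site, peaks of the full lists covered 1414, 1261, 1552 and 1196 bp in the 4 hi-77+/+ empty libraries and 323, 853, 607 and 394 bp in the 4 hi-77-/- 9aa-Ins libraries. The groups did not overlap. The cover was 293, 191, 78 and 609 bp in hi-77-/- empty and 0, 256, 0 and 246 bp in hi-77-/- GATA2, so that 10 of 12 libraries labelled hi-77-/- had some peak cover in this window. This goes against a complete absence of the window from these cells. The ends of the deletion were not given in the sources used here, and the source of the remaining peaks was not tested. Peaks covered 99.6, 98.8, 98.8 and 89.9% of the Gata2 coding exons in hi-77-/- 9aa-Ins and 32.6, 0, 13.4 and 0% in hi-77+/+ empty. The share was 7.64 to 8.75% in hi-77-/- empty and 46.5 to 73.7% in hi-77-/- GATA2. The retroviruses carry the mouse coding sequence, so reads from the vector and from the endogenous exons cannot be told apart.

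Lists of peaks held 107594, 104124, 85078 and 70219 entries in hi-77-/- 9aa-Ins and 87836, 111743, 76022 and 83018 in hi-77+/+ empty, with means of 91754 ± 17438 and 89655 ± 15504 (SD, n = 4 each). The difference of 2099 peaks was within the spread (two-sided exact permutation test, p = 0.914). Read totals were not given by the lists, so depth is unknown. The 49000 retained peaks were wider in hi-77-/- 9aa-Ins (median 293 to 378 bp) than in hi-77+/+ empty (212 to 260 bp) and more significant (median -log10 p of 22.5 to 28.0 against 16 to 17.3). They fell in 45476 to 47670 regions against 43408 to 45251. The part of width and significance in the results was not tested beyond the alternatives given for each count. Chromosomes X and Y also separated the lines. Peaks lay within 1 kb of the Xist start site in every hi-77-/- 9aa-Ins library (3 in each) and in no hi-77+/+ empty library, and peaks in the Y-linked genes Kdm5d, Eif2s3y, Uty and Ddx3y numbered 6, 9, 9 and 6 in hi-77+/+ empty and 0 in all 12 hi-77-/- libraries. The labels gave no sex, and this difference of the lines and the genotype cannot be told apart.

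Libraries resembled their own group more than the other. The mean Jaccard index, the share of regions open in a pair of libraries that both had open, was 0.763 between hi-77-/- 9aa-Ins libraries, 0.688 between hi-77+/+ empty libraries and 0.540 between the groups. Within-group minus between-group similarity was 0.185 (one-sided exact permutation test, p = 0.0286, the smallest that 4 against 4 libraries allow). The hi-77-/- 9aa-Ins libraries had an index of 0.699 with hi-77-/- empty and 0.609 with hi-77-/- GATA2. hi-77+/+ empty libraries had 0.562 with hi-77-/- empty and 0.552 with hi-77-/- GATA2, both above the 0.540 with 9aa-Ins.

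Opened regions made up 69.9% of changed regions. With only peaks of -log10 q of at least 5 and no matched number this share was 87.4% (7659 opened and 1102 closed), and with all deposited peaks it was 80.7%. With the top 50% of the 49000 peaks 2919 regions were opened and 1839 closed. Just outside the rule, 2267 regions had a peak in 3 of 4 hi-77-/- 9aa-Ins and 0 of 4 hi-77+/+ empty libraries, and 2128 had 4 of 4 against 1 of 4. On the closed side the corresponding numbers were 2280 (0 of 4 against 3 of 4) and 1502 (1 of 4 against 4 of 4). Regions with a peak in all 8 libraries numbered 24193 (26.7%). Absence meant absence from the 49000 retained peaks. In the full lists 1681 opened regions (33.0%) had no peak in any hi-77+/+ empty library, and 247 closed regions (11.3%) had none in any hi-77-/- 9aa-Ins library.

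Each of the 8 libraries was then held out while regions were chosen with the other 7. Held-out hi-77-/- 9aa-Ins libraries had a peak at 84.7, 92.7, 91.3 and 91.7% of the opened regions, and held-out hi-77+/+ empty libraries at 14, 9.30, 9.03 and 5.11%. At closed regions held-out hi-77-/- 9aa-Ins libraries had a peak at 29.3, 10.2, 7.78 and 6.84%, and hi-77+/+ empty libraries at 77.9, 78.8, 80.0 and 81.0%. The groups remained far apart, and hi-77-/- 9aa-Ins replicate 1 was nearest to hi-77+/+ empty at both sets. Without this library 6011 regions were opened and 3102 closed.

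The remaining 8 libraries, which the rule did not use, differed in how far they shared the accessible state of 9aa-Ins cells. Peaks were also weaker with GATA2. Those with -log10 q of at least 5 numbered 37548 to 46285, against 47867 to 54159 in hi-77-/- empty. The median -log10 p of retained peaks averaged 13.9 against 17.5. Full lists overlapped in length (49852 to 77687 against 63924 to 74292). hi-77-/- GATA2 replicate 1 had the shortest list, the lowest share at opened regions and the highest at closed ones. The part of peak strength in the shares below was not tested. Opened regions had a peak at 64.2, 68.0, 62.7 and 67.9% in hi-77-/- empty libraries and at 34.4, 45.2, 42.6 and 48.1% in hi-77-/- GATA2 libraries. All 4 GATA2 libraries were below all 4 empty ones, by 23.1 percentage points on average (65.7 ± 2.63% against 42.6 ± 5.89%, SD, n = 4 each, two-sided exact permutation test, p = 0.0286, adjusted p = 0.0286 over 2 tests). The adjusted p became 0.0571 with all deposited peaks, with the -log10 q minimum, with 50% of a region covered, and without hi-77-/- 9aa-Ins replicate 1. The adjustment takes in the test at closed regions, so this value depends on both tests. The difference itself was larger with all deposited peaks, with the minimum and with 50% cover. Closed regions had a peak at 15.9, 13, 17.1 and 13.1% in hi-77-/- empty and at 21.2, 20.4, 18 and 18.6% in hi-77-/- GATA2. The difference was 4.74 percentage points (p = 0.0286, exact permutation test, adjusted p = 0.0286). It was no longer past the threshold with the -log10 q minimum (1.75 percentage points), with 50% of a region covered (0.862), with all deposited peaks (5.69, adjusted p = 0.0857, exact permutation test) or without hi-77-/- 9aa-Ins replicate 1 (3.84, adjusted p = 0.0571).

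**Figure D1:**
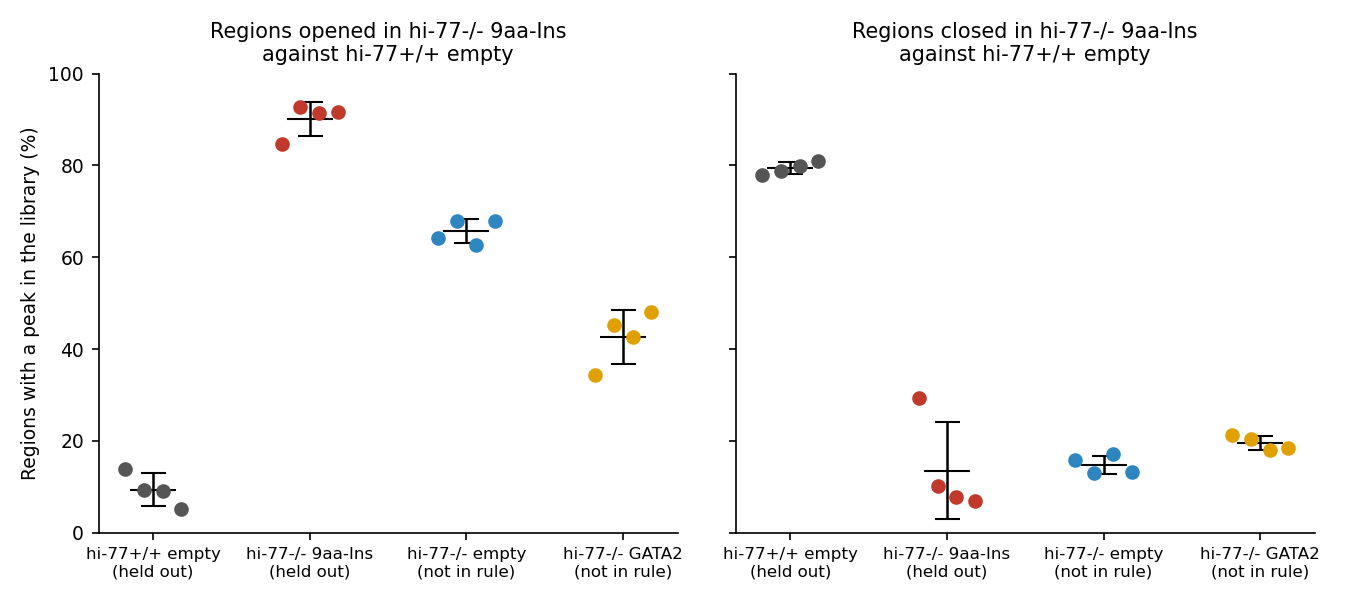
Share of opened (left) and closed (right) regions with a peak in each library, in percent, for the 4 groups, where points are libraries, horizontal lines means and error bars SD (n = 4 each). The 9aa-Ins and hi-77+/+ empty points come from regions chosen without that library; at opened regions hi-77-/- empty libraries lie at 62.7 to 68.0% and hi-77-/- GATA2 libraries at 34.4 to 48.1%.

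By region, 2427 opened regions (47.7%) had a peak in 4 of 4 hi-77-/- empty libraries, whereas 918 (18%) had one in 0 of 4. hi-77-/- GATA2 libraries held 1144 opened regions (22.5%) in 4 of 4 and 1760 (34.6%) in 0 of 4. Peaks in every hi-77-/- empty and every GATA2 library were found at 762 opened regions (15%), and 696 (13.7%) were in every hi-77-/- empty library and no GATA2 library. A set of 460 opened regions (9.04%) had no peak in any library but those with 9aa-Ins. Of the closed regions, 1340 (61.1%) were without a peak in every hi-77-/- empty library, 18 had one in 4 of 4, 946 (43.1%) were without a peak in all 12 hi-77-/- libraries, and 106 (4.83%) had one in 4 of 4 GATA2 libraries.

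Opened regions lay away from promoters. Within 3 kb of a start site were 531 opened regions (10.4%) and 409 closed regions (18.6%), against 24.7% of all regions and 46.7% of those with a peak in all 8 libraries. The median distance to the nearest start site was 26.7 kb for opened, 14.3 kb for closed and 14.7 kb for all regions. Opened regions were longer (median 413 bp) than closed (220 bp) and all regions (271 bp). Over 100 kb from any start site were 893 opened and 196 closed regions. In each library, 32.5, 32.6, 33.7 and 33.9% of the 49000 peaks of hi-77-/- 9aa-Ins lay within 3 kb of a start site, against 36.1, 36.4, 36.4 and 37.6% in hi-77+/+ empty. The groups did not overlap (difference -3.44 percentage points, exact permutation test, p = 0.0286, adjusted p = 0.0349 over 11 measures).

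The opened regions of highest rank were strong peaks in every hi-77-/- 9aa-Ins library. A rank is the place of a region's best peak when the peaks of 1 library are ordered by significance, and a place beyond 49000 is outside the retained list. The region in Mcfd2 (chr17:87255405-87256276), a cofactor of secretory transport of coagulation factors, ranked 2518, 2082, 2006 and 2045 in hi-77-/- 9aa-Ins and 52173, 104356, 74357 and 60506 in hi-77+/+ empty. The promoter region of Cstf2t (chr19:31082383-31083375), a polyadenylation factor, ranked 3493, 3241, 1194 and 3129 and had no peak in any hi-77+/+ empty list. Both regions had a peak in all hi-77-/- empty and GATA2 libraries.

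The third, in an intron of Tmprss2 (chr16:97589934-97591475) and printed for its RUNX match, ranked 4557, 3758, 1313 and 2869 against 74883, 63850, 59273 and no peak. A region in an annotated intron of Aim2 (chr1:173420272-173420752) ranked 3753, 3798, 4430 and 3644, and only hi-77+/+ empty replicate 4 had a peak there, at 62020. Aim2 encodes a cytosolic DNA sensor of the inflammasome. The next were intronic regions in Gipc1, Pde10a, Ext1 and Nrp2. The Nrp2 region (chr1:62724341-62725586) ranked 5969, 4089, 3865 and 5334 against 76640, 65758, 51594 and 73295. All 8 of these opened regions had a peak in every hi-77-/- empty and every GATA2 library.

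The closed regions of highest rank included more promoters. The region at the start of Bag3 (chr7:128523359-128524512), a cochaperone of HSP70, ranked 4696, 5799, 4535 and 3535 in hi-77+/+ empty and 88375, 73544, 61601 and 69807 in hi-77-/- 9aa-Ins. The promoter region of Rab27b (chr18:70053003-70053662), a small GTPase of secretory granules, ranked 6125, 16618, 8602 and 9135 against 70902, 60602 and no peak in 2 libraries. An intronic region of Rbm20 nearest to the start of Pdcd4 (chr19:53824662-53825336) ranked 10126, 7271, 9967 and 9165 and had no peak in any hi-77-/- 9aa-Ins list. Of the other 5 regions, those of Snapc2, Mboat4, Cpe and Cers4 were on chromosome 8, and that of Zmiz1, the third by rank, was 81.1 kb upstream of its start site. Bag3, Snapc2, Zmiz1, Mboat4, Pdcd4 and Cers4 regions had a retained peak in 0 of 4 hi-77-/- empty and 0 of 4 GATA2 libraries.

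Changed regions lay in clusters in part. When opened regions within 50 kb of each other were chained, 305 chains held 3 or more, with 1156 regions (22.7% of opened). For closed regions 67 chains held 3 or more, with 230 regions (10.5%). The densest opened locus, chrX:50566424-50623446, held 17 opened regions of 19 merged regions and lies within Firre, a long noncoding RNA gene. Peaks in Firre numbered 28, 29, 27 and 27 in hi-77-/- 9aa-Ins and 2, 2, 1 and 1 in hi-77+/+ empty. The third locus, chrX:75729639-75759381 with 12 opened of 17 regions, lies in the noncoding gene 4933407K13Rik, in which peaks numbered 22, 30, 20 and 21 against 2, 3, 1 and 3. Both loci had nearly all of these peaks in every other hi-77-/- library as well, 16 or 17 of 17 and 12 of 12. These libraries include hi-77-/- empty, which carried no variant. At these X loci the difference of the lines on chromosomes X and Y, given above, and the genotype cannot be told apart.

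The densest autosomal loci were on chromosomes 12 and 14. At Prkch, which encodes protein kinase C eta, and the neighboring Hif1a, 12 of 19 regions in chr12:73593306-73756325 were opened, of which 7 to 9 had a peak in hi-77-/- empty and 5 or 6 in GATA2 libraries. At Fos, an AP-1 gene, with Jdp2 and Tmed10, 9 of 36 regions in chr12:85393949-85571724 were opened. At Serp2 9 of 30 regions in chr14:76610994-76780875 were opened, with 5 or 6 of the 9 in hi-77-/- empty libraries and 1 to 3 in GATA2 libraries. The densest closed loci included Dusp4 and Tnks (chr8:34804765-34907881, 7 of 27 regions) and, off chromosome 8, Lyn, a Src family kinase of myeloid and B cells (chr4:3712191-3823391, 5 of 25), and Dst (chr1:33964722-34061417, 4 of 6). In the Lyn locus hi-77-/- empty libraries had 1, 3, 0 and 0 of the 5 regions and GATA2 libraries 0, 1, 0 and 1.

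Chromosome 8 stood apart. It held 5.18, 5.51, 5.63 and 5.33% of the 49000 peaks in hi-77-/- 9aa-Ins and 7.84, 7.92, 7.98 and 7.64% in hi-77+/+ empty (5.41 ± 0.198% and 7.84 ± 0.147%, SD, n = 4 each). The means were 5.45% in hi-77-/- empty and 5.42% in hi-77-/- GATA2. The difference of -2.43 percentage points had p = 0.0286 in the two-sided exact permutation test, the smallest it can give, and an adjusted p of 0.0571 over 20 chromosomes. The same p was reached with lower shares in 9aa-Ins for chromosomes 5 and 7 and higher shares for 13, 14, 15, 16, 17, 18 and X, by at most 0.473 percentage points. Of the 5942 regions of chromosome 8, 399 (6.71%) were closed and 120 (2.02%) opened. Closed regions of chromosome 8 were 18.2% of all closed regions, and outside it opened regions were 73.5% of changed regions. Chromosome 8 content, cell line and genotype cannot be told apart here, and its part in the lower genes was not tested other than by leaving the chromosome out.

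**Figure D2:**
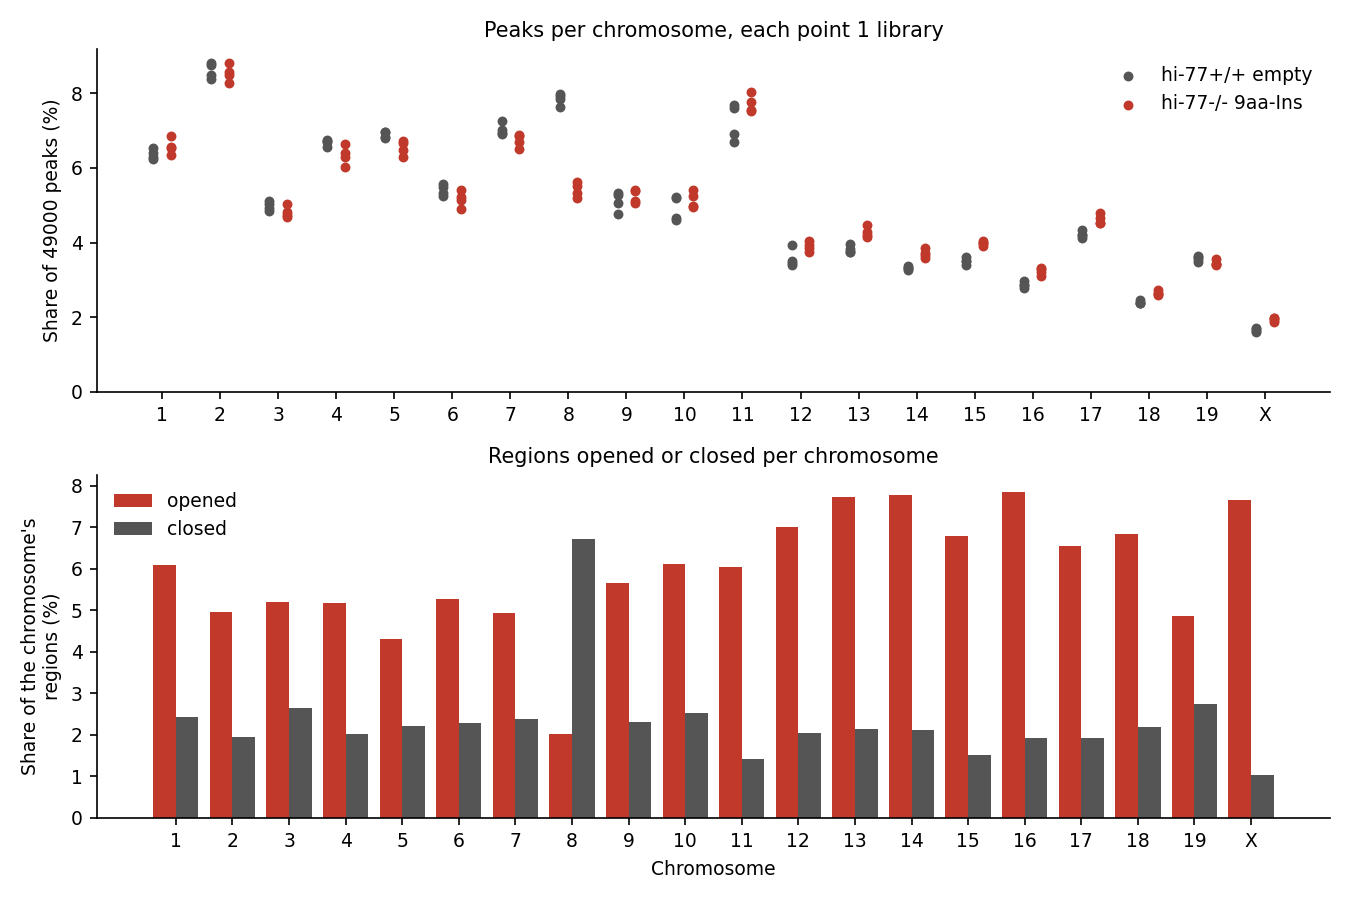
Share of the 49000 peaks on each chromosome for each library (top, percent, points are single libraries of the hi-77-/- 9aa-Ins and hi-77+/+ empty groups) and share of each chromosome's regions that were opened or closed (bottom, percent). On chromosome 8 the hi-77+/+ empty points lie at 7.64 to 7.98% and the 9aa-Ins points at 5.18 to 5.63%, and 6.71% of regions were closed.

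In windows of 1 Mb the number of regions with a peak was higher with 9aa-Ins in 613 of 2277 windows tested (26.9%) and lower in 340 (14.9%), by limma with Benjamini-Hochberg adjusted p under 0.05. On chromosome 8, 75 of 117 windows (64.1%) were lower and 4 higher. The window of chromosome 14 from 69 to 70 Mb, with 15 protein-coding genes that include the mitochondrial iron importer gene Slc25a37 and Stc1, had 54, 57, 52 and 58 regions against 27, 25, 26 and 26. That of chromosome 17 from 31 to 32 Mb, with Sik1, Abcg1 and Ubash3a, had 54, 53, 53 and 60 against 27, 24, 30 and 22. In both windows every 9aa-Ins library was above every hi-77+/+ empty library. Their log2 differences were 1.07 ± 0.0424 and 1.09 ± 0.0975 (SE), with limma adjusted p of 4.7e-06 and 0.00028. Also among the 10 with the largest gain was the window of chromosome 17 from 34 to 35 Mb, which holds MHC class II genes, with 100, 92, 97 and 93 regions against 79, 68, 70 and 69. Of the 10 windows with the largest loss, 9 were on chromosome 8, and the other was that of Lyn on chromosome 4 from 3 to 4 Mb, with 41, 39, 45 and 40 regions against 70, 68, 78 and 63.

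Around genes, each region within 100 kb of a start site was assigned to the nearest protein-coding gene, and the regions with a peak were counted per gene and library. Genes with at least 1 opened region numbered 2980, genes with at least 1 closed region 1720, and genes with both 310. At least 3 opened regions were found at 240 genes and at least 3 closed at 40, of which 17 were on chromosome 8. Of 13615 gene neighborhoods tested, 1275 (9.36%) had more regions with 9aa-Ins and 931 (6.84%) fewer, by limma on log2(regions + 0.5) with Benjamini-Hochberg adjusted p under 0.05. Every 9aa-Ins library was above every hi-77+/+ empty library in 1321 neighborhoods (9.7%) and below in 915 (6.72%). The higher share of called neighborhoods was 57.8% and moved to 87.9% with the -log10 q minimum, to 70.5% with all deposited peaks, to 71.6% with 50% of a region covered, and to 45.7% when regions within 50 kb of the gene body were counted. Without hi-77-/- 9aa-Ins replicate 1 it was 48.2%, with 981 higher and 1054 lower, so that lower calls then outnumbered higher ones, and without any other single library it was 53.3 to 61.5%. On chromosome 8, 207 of 762 neighborhoods (27.2%) were lower and 16 higher, which left 724 lower neighborhoods elsewhere. The replicate block, fitted although the numbers did not pair the libraries, gave 778 higher and 579 lower.

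**Figure D3:**
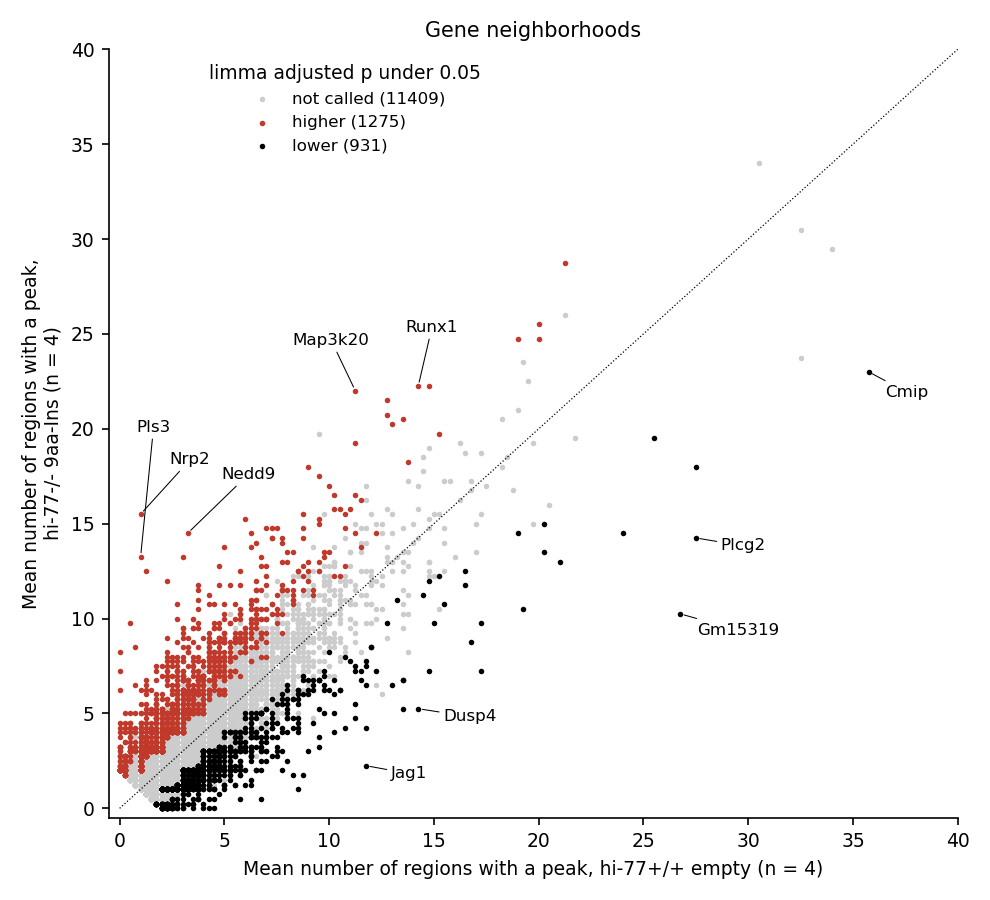
Mean number of regions with a peak per gene neighborhood in hi-77+/+ empty (x axis, n = 4) and hi-77-/- 9aa-Ins (y axis, n = 4), with neighborhoods past the limma threshold in color and those with the largest differences named. Nrp2, Pls3 and Nedd9 lie far above the diagonal, and Plcg2, Cmip and Jag1 below it. The opened regions of Pls3 are those of 4933407K13Rik on chromosome X, and Plcg2 and Cmip are on chromosome 8.

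The largest gain was at Nrp2, the neuropilin-2 coreceptor of semaphorins and VEGF-C, with 14, 16, 16 and 16 regions in hi-77-/- 9aa-Ins and exactly 1 in each hi-77+/+ empty library. No library of either group approached the other. The log2 difference was 3.41 ± 0.0457 (SE, limma adjusted p = 4.49e-09), and the means were 13.5 in hi-77-/- empty and 4.75 in hi-77-/- GATA2. Equal counts within a group make the limma SE very small. At Mcpt8, described below with 2 regions against 0 in each library, it was 6.0e-05. Such an SE and p-value reflect tied whole numbers, not a measured spread. Calls at genes with equal counts, such as Mcpt8 and Tlr4, carry this limit. Nedd9, a scaffold of integrin signaling, had 13, 14, 16 and 15 regions against 3, 3, 4 and 3, with means of 8.75 and 7.25 in hi-77-/- empty and GATA2. Tle3, a Groucho family corepressor, had 10, 14, 13 and 13 against 1, 2, 1 and 1, and 10.5 and 7.25 in the other groups. These 3 genes were separated without overlap.

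Kinase and adaptor genes were among the others. Sik1, a salt-inducible kinase, had 13, 14, 12 and 14 regions against 3, 4, 2 and 3. Prkch had 12, 12, 11 and 13 against 1, 2, 3 and 3, with means of 9.75 in hi-77-/- empty and 4.25 in GATA2. Pag1, a membrane adaptor that binds the kinase Csk, had 10, 8, 10 and 11 against 0, 1, 1 and 0. Map3k20, a stress-activated kinase, had 24, 22, 20 and 22 against 13, 13, 11 and 8. All 4 passed the limma threshold, with adjusted p from 0.00042 to 0.00867. The other higher genes of the 10 with the largest gain were St3gal1, a sialyltransferase, the uncharacterized 1600014C23Rik, and Pls3, whose 12 opened regions were those of 4933407K13Rik. Sash1 had 8, 8, 9 and 8 regions against 0 in every hi-77+/+ empty library, with 6 opened. Litaf, Rab11fip4, Fabp12 and Pde4d had 6 or 7 opened regions each and passed the threshold, with limma adjusted p from 9.66e-05 to 0.0185.

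Of the 10 neighborhoods with the largest loss, 8 were on chromosome 8. They included Plcg2, a phospholipase C of Fc and B cell receptor signaling, with 13, 15, 17 and 12 regions against 28, 33, 28 and 21, and Dusp4, a MAP kinase phosphatase, with 4, 6, 6 and 5 against 16, 14, 16 and 11. The others there were Gm15319, Cmip, Tacc1, Gse1, Psd3 and Chd9. In hi-77-/- empty the means were 15 at Plcg2 and 3.75 at Dusp4. Off chromosome 8, Jag1, a Notch ligand, had 2, 2, 3 and 2 regions against 14, 13, 12 and 8 (log2 difference -2.14 ± 0.203, SE, limma adjusted p = 0.000649), with means of 3 in hi-77-/- empty and 1.75 in GATA2. Vmn1r2, a vomeronasal receptor gene, had 4, 4, 6 and 7 against 15, 11, 16 and 12, and lies in the window of Lyn, so that both losses partly count the same regions.

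Among genes with the most closed regions, Dst, a cytoskeletal linker, had 5 closed, with 2, 0, 1 and 1 regions against 9, 10, 8 and 7. Nfatc2, a calcium-regulated transcription factor, had 1, 3, 1 and 3 against 8, 9, 8 and 6. Pdia4 had 13, 14, 13 and 14 against 19, 19, 23 and 20, Arhgap10 of chromosome 8 was also lower, and all 4 passed the limma threshold. Hpcal1 had 4 closed and 2 opened regions, and its total of 8, 11, 9 and 10 against 9, 9, 8 and 8 was not past the threshold (limma adjusted p = 0.386).

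The Gata2 neighborhood had 11, 12, 12 and 11 regions against 7, 7, 7 and 6, with 5 of 13 regions opened. Of these 5, 4 overlapped Gata2 coding exons, which the vector carries. The fifth, chr6:88145840-88146260, lies 47.8 kb upstream of the Gata2 start site and had a peak in 4 of 4 hi-77-/- empty and 0 of 4 GATA2 libraries. The counts for Gata2 cannot be assigned to the endogenous gene.

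Listed myeloid genes with more regions than in hi-77+/+ empty cells included Csf1r, F13a1 and Id2. Counts of the lists are set beside the 9.36% higher and 6.84% lower of all neighborhoods, for which the median difference was 0 regions. Listed neighborhoods also differed in size from all neighborhoods, which held 80480 regions at 17027 genes. The monocyte, macrophage and dendritic cell list held 178 regions at 20 genes, and the stem and progenitor factor list 314 at 19. The part of neighborhood size in the counts and medians of the lists was not tested. Of 19 monocyte, macrophage and dendritic cell genes tested, 8 were higher and 1 lower, with a median difference of 1.25 regions. Csf1r, the receptor for M-CSF, had 10, 8, 10 and 8 regions against 2, 4, 2 and 1, with means of 6.5 in hi-77-/- empty and 4 in GATA2. F13a1, which encodes the A chain of coagulation factor XIII, had 7, 10, 12 and 9 against 4, 5, 5 and 4. Id2, an inhibitor of E proteins, had 10 in each 9aa-Ins library against 7, 7, 6 and 7. In these 3 genes the groups did not overlap.

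Other higher genes of this list included Ly6c2, Klf4, Itgam and Cx3cr1. Fcgr1, the high-affinity IgG receptor, went the other way, with 5, 6, 5 and 5 against 10, 9, 10 and 9 (limma adjusted p = 0.000458) and 3 closed regions. With the top 50% of the 49000 peaks the log2 difference of Fcgr1 was 0.45, of opposite sign and not past the threshold. Irf8, a monocyte and dendritic cell regulator on chromosome 8, had 8, 8, 9 and 11 against 9, 8, 8 and 10. Of 14 neutrophil and granulocyte genes, 3 were higher and 0 lower (median 0.875): Mpo, myeloperoxidase, with 8, 9, 8 and 7 against 6, 4, 6 and 4, Cebpa, the myeloid regulator, with 9, 7, 7 and 8 against 6, 5, 5 and 5, and Cebpe.

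Of 25 innate sensing genes, 7 were higher and 0 lower, with a median of 0.75 regions. Aim2 had 8, 9, 9 and 8 regions against 3, 3, 3 and 4, with 3 opened. Tlr2, a receptor for bacterial lipopeptides, had 7, 7, 7 and 8 against 4, 5, 5 and 6, and Tlr4, the lipopolysaccharide receptor, had 3 in each 9aa-Ins library against 1 in each hi-77+/+ empty library. The other 4 were Tlr1, Trem2, Nlrc4 and Tifa, each by 1 to 2 regions. Of 23 cytokine receptor genes, 6 were higher and 0 lower (median 0.5). Il10ra, the IL-10 receptor chain, had 4 in each 9aa-Ins library against 0, 1, 0 and 0, and Ifngr1, a chain of the interferon gamma receptor, had 6, 8, 8 and 7 against 2, 3, 3 and 3. Il1r2, the decoy receptor of IL-1, had 10, 9, 11 and 10 against 7, 6, 6 and 6, with a log2 difference of -0.61 with the top 50% of the 49000 peaks that was not past the threshold. The remaining 3 were Csf1r, Il6st and Il1rl1.

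Of 18 stem and progenitor transcription factor genes, 3 were higher (Runx1, Gata2 and Cebpa) and 0 lower, with a median of 1.375. The count of Gata2 includes coding exons that the vector carries, so its call cannot be divided between the vector and the endogenous gene. Runx1, which is required for blood stem cell emergence, had 22, 22, 24 and 21 regions against 13, 17, 14 and 13, 5 of them opened. Erg, an ETS factor of stem cells, had 20, 19, 20 and 20 against 14, 10, 10 and 4, and was not past the threshold (limma adjusted p = 0.0752), with the spread of the hi-77+/+ empty libraries. Of 17 ETS family genes Elf4 and Etv3 were higher and 0 lower (median 0.25). Of 14 pan-hematopoietic genes 3 were higher (Runx1, Lcp1 and Vav1) and 1 lower (median 0.875). The lower gene was Cd34, a sialomucin of progenitors, with 10, 9, 9 and 11 regions against 12, 12, 14 and 13.

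Of 13 mast cell, basophil and eosinophil genes, 4 were higher and 0 lower (median 0.5). They were Mitf, a mast cell regulator, Ccr3, the eotaxin receptor, with 5, 4, 4 and 5 regions against 1 in each hi-77+/+ empty library, Il1rl1, the IL-33 receptor, and Mcpt8, a basophil protease, with 2 in each 9aa-Ins library against 0 in each hi-77+/+ empty library. Of 13 B-lineage genes 2 were higher and 0 lower (median 1.25), namely Pax5, the B-lineage regulator, with 4, 3, 3 and 4 against 2, 1, 1 and 1, and Igll1, a surrogate light chain. Of 9 MHC class II genes, 2 were higher (H2-Oa and H2-Ob) and 0 lower (median 1.25).

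Of 8 erythroid genes, Tfrc was higher and Ank1, of chromosome 8, lower (median -0.875). Of 9 megakaryocyte and platelet genes, Itgb3, integrin beta 3, was higher with 7, 6, 6 and 6 against 4, 2, 2 and 2, and Rab27b lower with 1, 1, 2 and 1 against 5 in each hi-77+/+ empty library (median -0.25). At Rab27b 4 of 8 regions were closed. Of 10 T and NK cell genes tested, Cd28 and Gata3 were higher and Eomes lower (median 0). Of 6 hepatocyte genes 0 were called in either direction (median -0.25). Of the genes described, 65 called ones were checked with single libraries left out, and some other called genes were not. Cd34, Cebpe, Elf4, Eomes, Gata3, Gm15319, H2-Oa, Il6st, Mitf, Mpo, Tgfa and Tlr2 no longer passed when some single libraries were left out, with limma adjusted p of up to 0.111 at Tgfa, 0.107 at Mpo and 0.0983 at Eomes and Il6st.

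**Figure D4:**
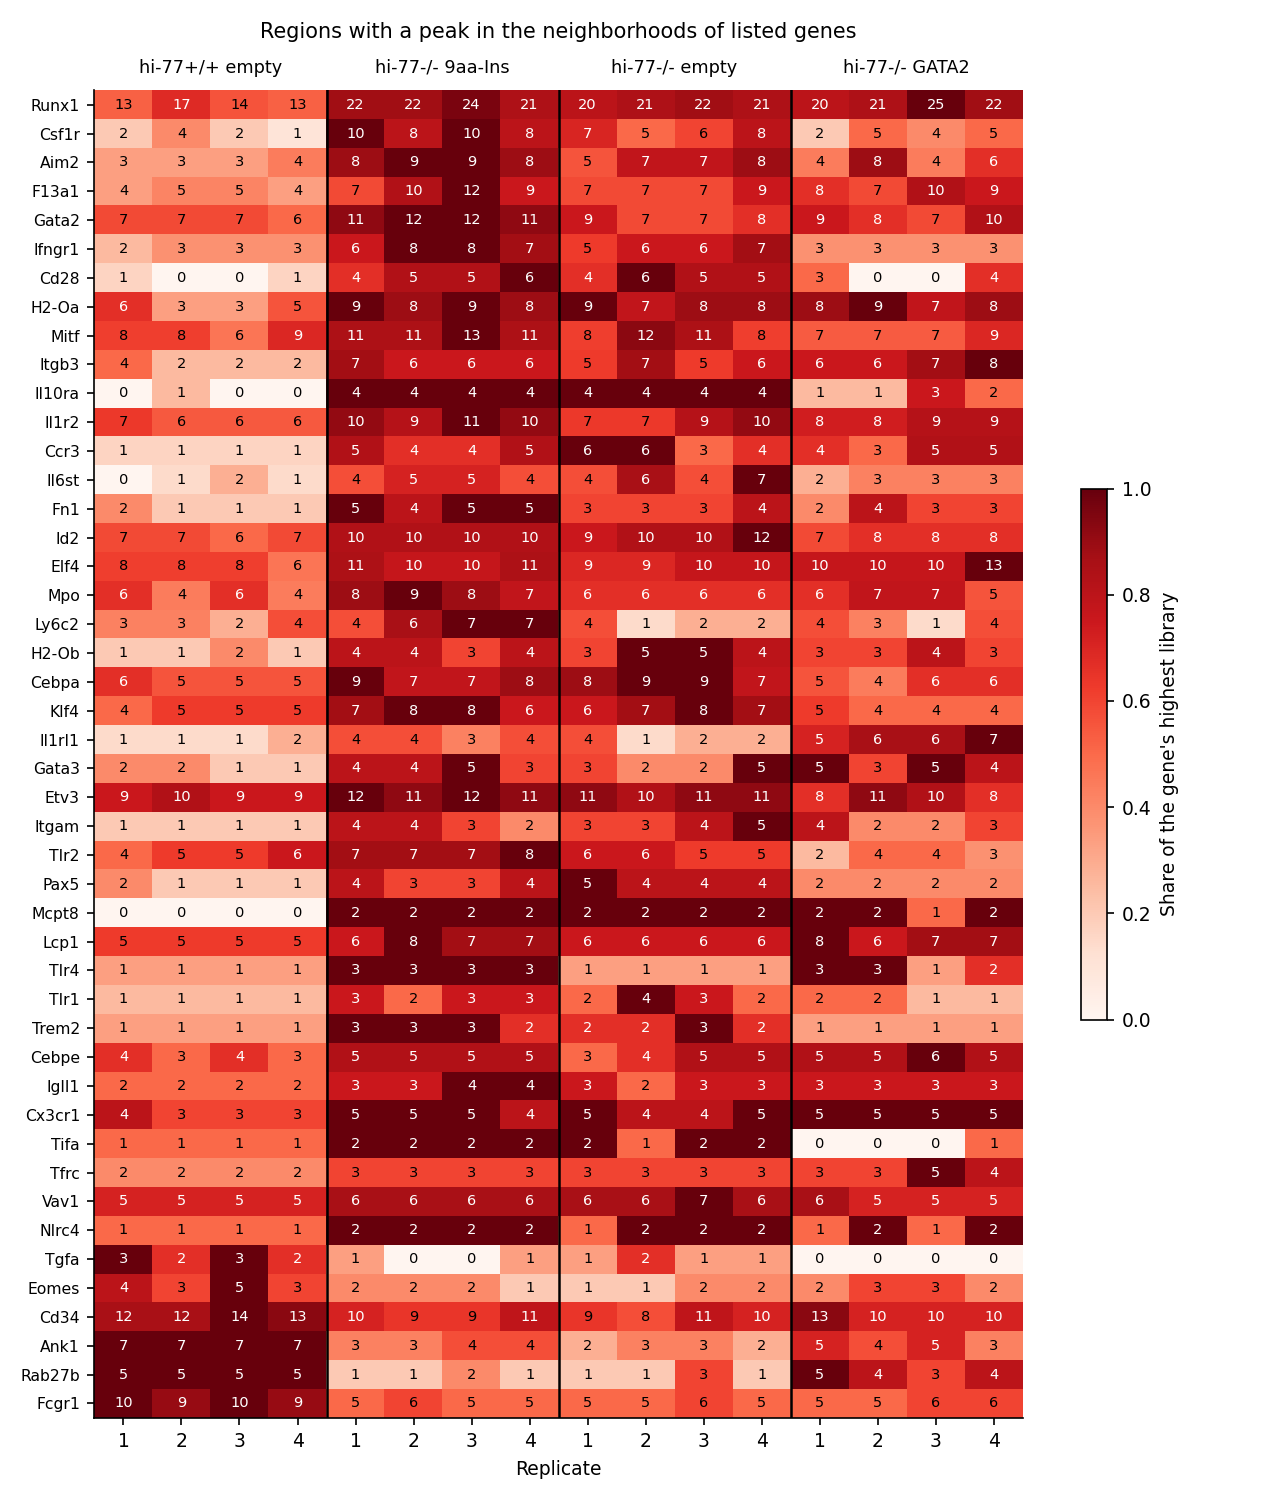
Number of regions with a peak in each of the 16 libraries (columns, grouped) for 46 listed genes past the limma threshold (rows), with color as the share of the gene's highest library. The 40 higher genes show larger mean counts in the 4 hi-77-/- 9aa-Ins columns than in the 4 hi-77+/+ empty columns, and the 6 lower genes smaller ones.

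Genes that the study named as GATA2-activated or GATA2-repressed were chosen from its expression data and its own account, so their counts are not independent evidence. Of 9 GATA2-activated genes tested, Il1rl1 was higher, with 4, 4, 3 and 4 regions against 1, 1, 1 and 2 and a mean of 6 in hi-77-/- GATA2, and 0 were lower (median 0.25). Kit, the stem cell factor receptor, had 2 in each 9aa-Ins library against 1, 1, 1 and 2 and was not past the threshold, nor were Csf2rb, Csf2rb2, Hdc, Far2, Cnr2, S1pr1 and Ldhc. S1pr4, a sphingosine phosphate receptor, had 0 in each 9aa-Ins library against 2, 1, 2 and 1, with 1 closed region, and was below the minimum for the test. Gata1 and Epx, also below it, had no region with a peak in any of the 8 libraries, whereas the GATA2 group had means of 2.5 and 0.75. Of 13 GATA2-repressed genes tested, 3 were higher and 1 lower (median 0.75). The study also named B-lineage genes such as Pax5 and Igll1 as GATA2-repressed, which are counted in the B-lineage list and not here. Fn1, fibronectin, had 5, 4, 5 and 5 against 2, 1, 1 and 1. Il6st, the shared gp130 receptor chain, had 4, 5, 5 and 4 against 0, 1, 2 and 1, with a mean of 5.25 in hi-77-/- empty and 2.75 in GATA2. Tlr1 had 3, 2, 3 and 3 against 1 in each. Tgfa, a growth factor of the EGF family, was lower, with 1, 0, 0 and 1 against 3, 2, 3 and 2. Tifab, Il6ra, Tgfb3, Il7, Trem1, Irf8, Vwf, Ifi209 and Tlr6 were not past the threshold. Nlrp1a (1 in each against 1, 0, 0 and 0) and Tlr7 (0, 0, 2 and 1 against 0 in each) were below the minimum for the test.

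The sequence around the summits also separated the groups. Within the 200 bp around each summit, ETS motifs were found in 21.8, 22.4, 22.5 and 22.8% of the 49000 peaks of the hi-77-/- 9aa-Ins libraries and 17.5, 16.9, 16.4 and 16% of those of hi-77+/+ empty. PU.1 motifs rose from 8.27 ± 0.311% in hi-77+/+ empty to 11.2 ± 0.156% (SD, n = 4 each, exact permutation test, p = 0.0286). RUNX motifs had means of 11.7% with 9aa-Ins and 9.24% in hi-77+/+ empty, and AP-1 motifs 9.48 and 8.34%. C/EBP motifs were found in 2.51, 2.62, 2.66 and 2.63% of peaks against 1.61, 1.47, 1.40 and 1.39%. EBF motifs had means of 6.61 and 5.41% and IRF motifs 5.58 and 4.83%. The CTCF core was less frequent with 9aa-Ins, at 15.7, 15.1, 14.4 and 14.5% against 17.2, 17.5, 17.6 and 17.9%. For these 8 motifs no library of one group overlapped the other, and each had p = 0.0286 in the two-sided exact permutation test and an adjusted p of 0.0349 over 11 measures.

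The GATA motif itself did not separate the groups. WGATAR, searched as AGATAA with T allowed as the first and G as the last letter, was found in 20.4, 20.9, 20.7 and 20.9% of peaks with 9aa-Ins and 21.3, 20.9, 20.8 and 20.5% in hi-77+/+ empty (difference -0.179 percentage points, exact permutation test, p = 0.429). The mean was 26.8% in hi-77-/- GATA2 and 20.2% in hi-77-/- empty. An E-box (CANNTG) placed 6 to 14 bp from WGATAR was found in 1.41 and 1.35% (adjusted p = 0.22, exact permutation test). Peaks with 9aa-Ins also had a lower GC content (54.1 against 54.5%) and less annotated repeat (12.4 against 14.1% of bases), and the part of base composition in the motif shares was not tested.

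**Figure D5:**
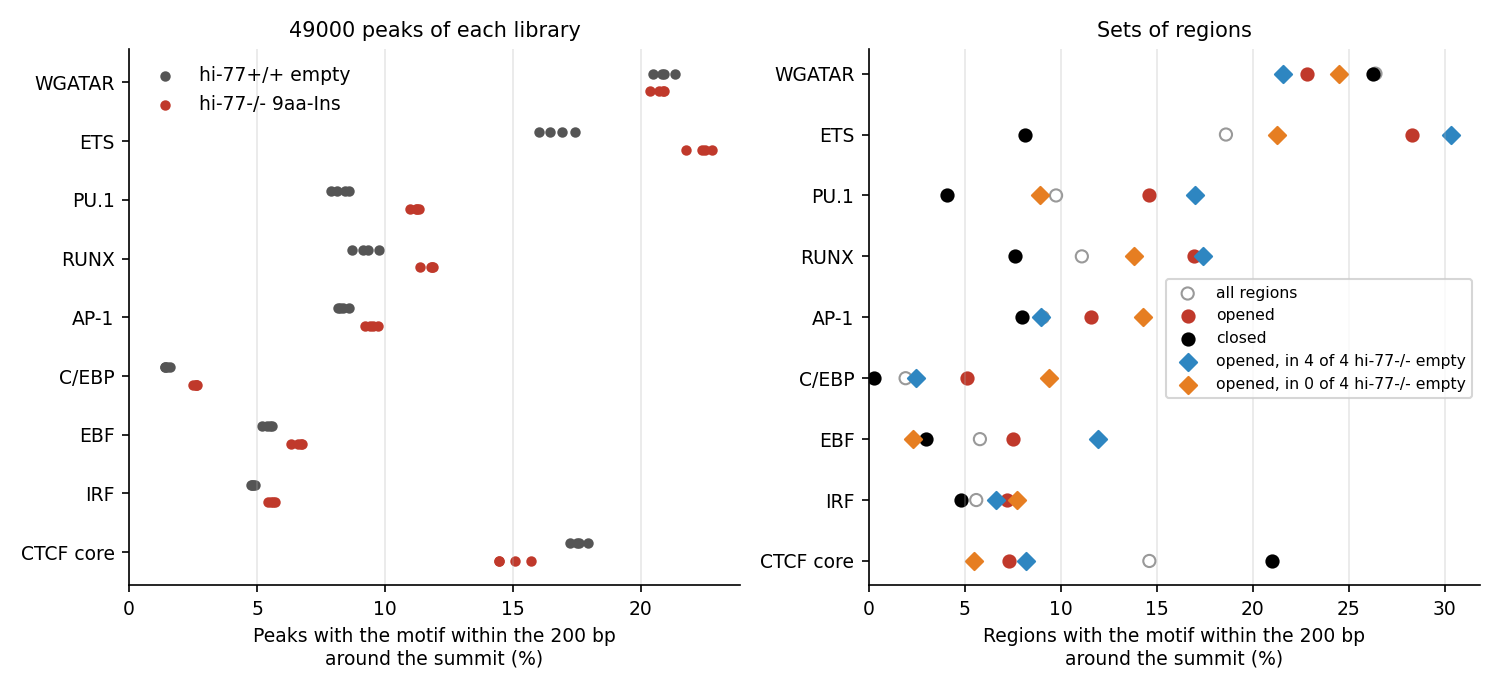
Share of peaks (left, percent, points are libraries of the hi-77-/- 9aa-Ins and hi-77+/+ empty groups) and share of regions in sets (right, percent) with each motif within 200 bp around the summit. ETS, PU.1, RUNX and C/EBP points of 9aa-Ins lie above those of hi-77+/+ empty, those of the CTCF core below, and those of WGATAR overlap.

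The region sets followed the same order, as a description without a test. Of all regions 18.6% held an ETS motif, of opened regions 28.3%, and of closed regions 8.11%. The corresponding shares were 9.75, 14.6 and 4.06% for PU.1, 11.1, 17.0 and 7.61% for RUNX, and 1.91, 5.13 and 0.273% for C/EBP. They were 9.05, 11.6 and 7.98% for AP-1, 5.78, 7.52 and 2.96% for EBF, and 5.59, 7.21 and 4.79% for IRF. The CTCF core was in 14.6% of all, 7.31% of opened and 21% of closed regions, and in 21.1% of closed regions outside chromosome 8. WGATAR was in 26.4% of all, 22.8% of opened and 26.3% of closed regions. All regions include 13322 with no retained peak in either group, and hi-77-/- GATA2 libraries held WGATAR in 26.8% of peaks on average. The part of such regions in the shares of all regions was not tested. Outside promoters ETS motifs were in 28.9% of opened and 8.68% of closed regions, against 19.2% of all.

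Opened regions that hi-77-/- empty cells shared differed in sequence from those they did not. Of the 2427 opened regions with a peak in 4 of 4 hi-77-/- empty libraries, 11.9% held an EBF motif and 2.47% a C/EBP motif, as the Ednrb and Elfn2 sequences do. Of the 918 with a peak in 0 of 4, 2.29% held EBF and 9.37% C/EBP. AP-1 motifs were in 8.98% of the former and 14.3% of the latter, and ETS motifs in 30.3 and 21.2%. The strongest of the 918 by median rank were near Srd5a3 (chr5:76136130-76136699), a steroid reductase family gene, with ranks of 20626, 15450, 14008 and 12488, and Serpine2 (chr1:80025839-80026665), a protease inhibitor, with 15804, 17999, 15107 and 15205 and no peak in any hi-77+/+ empty or hi-77-/- empty list. Opened regions with a peak in 4 of 4 GATA2 libraries held WGATAR at 37.7%, and those with a peak in 0 of 4 at 14.6%. EBF motifs were in 4.28% of the former and 12% of the latter.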

How the data were processed

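ATAC-Seq peak lists of 16 libraries were used, of which 8 formed the comparison, grouped by the genotype and treatment of the labels. Per the submitters' processing notes, the authors used Trim Galore 0.4.1, Bowtie2 2.2.5, Picard 2.26.0 and MACS2 (version not given in the sources used here) with build mm10. The deposited columns used were the -log10 p and -log10 q of each peak, its fold enrichment over background (a ratio, used only to break ties), and the summit offset. The deposited score, an integer scaled from q, was not used. The peak lists give no read totals, so depth per sample is unknown and no counting interval is given.

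Peaks on chromosomes 1 to 19 and X were ranked by -log10 p, then fold, then position, and 49000 per library were kept. The Y chromosome was read from the full lists only. Regions were assigned to the nearest start site of a protein-coding gene (GENCODE M21) within 100 kb. Neighborhoods and 1-Mb windows with a mean of at least 1 region with a peak over the 8 libraries were tested with limma 3.58.1 (R 4.3.3; lmFit, eBayes with trend) on log2(regions + 0.5), which understates changes of low values, with Benjamini-Hochberg adjustment over all features tested and a threshold of 0.05. Values with 1 number per library were compared by exact permutation tests (Python 3.11.15, numpy 2.4.6, pandas 2.3.3, scipy 1.17.1), whose smallest two-sided p for 4 against 4 libraries is 0.0286. Motifs were searched on both strands in the 200 bp around the summit. Regions to print were searched on all chromosomes but 18, and closed ones also not on 8. The fits were also run on simulated data in which each region was drawn independently at its hi-77+/+ empty rate. The simulation had no shared library effect of peak width or significance, so it does not give the error rates of these data.

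The members and the gene lists were chosen with earlier results of these data known. Genes and regions are named by rule: the 8 opened and 8 closed regions of highest median rank, the 10 neighborhoods up and 10 down with the largest differences past the threshold, the 10 genes with most opened and most closed regions, the 5 densest loci per direction, up to 4 members of each list with the largest differences, all genes of the lists named by the study, and Gata2. Windows, printed sequences, further called members of the lists, and the regions of Srd5a3 and Serpine2 were named after their values were seen. Some genes and loci that the rule picked are not reported here. The lists were GATA2-activated and GATA2-repressed genes named by the study, B-lineage, mast cell with basophil and eosinophil, erythroid, megakaryocyte, neutrophil, monocyte with macrophage and dendritic cell, stem and progenitor factor, cytokine receptor, innate sensing, MHC class II, ETS family, hepatocyte, T and NK cell, and pan-hematopoietic genes. Alternatives changed the number of peaks (the top 50% of the 49000, or all), the -log10 q (at least 5), the peak width (under 1 kb), the cover of a region (50%), the merged files, the pseudocount (0.1 or 1), the low filter, the neighborhood, the motif window (100 bp) and the libraries. Leaving out chromosome 8 or X was added after the data were seen.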

Additional observations from a re-analysis of the deposited data

Results flagged for a closer look

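In groups of 4 libraries, a library was set apart when its gap to the nearest other library made up more of the range than Dixon's 95% critical value. Of 220 groups checked 41 were set apart, and chance alone sets apart about 1 in 20. Peaks with -log10 q of at least 5 numbered 61394 in hi-77+/+ empty replicate 4, against 51472 to 53022 in the others. hi-77-/- 9aa-Ins replicate 1 had a peak at 84.7% of held-out opened regions (others 91.3 to 92.7%), at 29.3% of held-out closed regions (others 6.84 to 10.2%), and a RUNX motif in 11.4% of peaks (others 11.8 to 11.9%). hi-77-/- 9aa-Ins replicate 4 had peaks over 89.9% of the Gata2 coding exons (others 98.8 to 99.6%) and 3.56% of peaks on chromosome 19 (others 3.41 to 3.43%).

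The other 35 were neighborhood counts, out of 134 groups of such counts, in which 3 libraries had the same number of regions and 1 differed by 1 or 2. Among hi-77-/- 9aa-Ins libraries the differing counts were 14 at Nrp2, 14 at Pls3, 3 at Jag1, 9 at Sash1, 9 at Arhgap10, 3 at Il1rl1, 4 at Fn1, 2 at Tlr1, 13 at Mitf, 7 at Itgb3, 2 at Rab27b, 6 at Fcgr1, 19 at Erg, 8 at Tlr2, 3 at H2-Ob and 1 at Eomes. Among hi-77+/+ empty libraries they were 4 at Nedd9, 2 at Tle3, 2 at Fabp12, 5 at Rab11fip4, 7 at Litaf, 2 at Il1rl1, 2 at Fn1, 2 at Pax5, 4 at Itgb3, 6 at Cebpa, 6 at Id2, 6 at Gata2, 2 at Ifngr1, 1 at Il10ra, 7 at Il1r2, 4 at Aim2, 2 at H2-Ob, 6 at Elf4 and 10 at Etv3.

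Chromosome Y, which the comparison did not use, had 6, 9, 9 and 6 peaks in Kdm5d, Eif2s3y, Uty and Ddx3y in the 4 hi-77+/+ empty libraries and 0 in each hi-77-/- 9aa-Ins library.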

How the results depend on the processing

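The similarity of libraries kept its direction and its side of the threshold under every alternative run, and ranged from 0.167 to 0.203 when 1 library was left out. Opened regions numbered 2919 with the top 50% of the 49000 peaks (short lists) and 7659 with a -log10 q of at least 5, and closed regions 1102 with that minimum. With 1 library left out they ranged from 5364 to 6011 and from 2355 to 3102. GATA2 minus empty shares no longer passed the threshold with all deposited peaks (-24.1 and 5.69 points at opened and closed regions), with the -log10 q minimum (-29.3 and 1.75) and with 50% of a region covered (-29.1 and 0.862). At opened regions these differences were larger in size than in the main setting, and each adjusted p depends on both tests. The differences ranged from -23.5 to -22.0 and from 3.84 to 4.90 with 1 library left out, where both calls were lost without hi-77-/- 9aa-Ins replicate 1. Higher neighborhoods numbered 2043 with the -log10 q minimum, 843 with short lists, 615 with all peaks and 2150 by gene body, and lower ones 280 with the minimum, 257 with all peaks, 607 with 50% cover and 2557 by gene body. Leaving out 1 library gave 886 to 1286 higher and 763 to 1054 lower. Higher windows numbered 131 with all peaks, and lower windows 75 with the minimum, 34 with all peaks and 212 with 50% cover, with 501 to 561 and 273 to 351 when 1 library was left out. Without chromosome 8, 4970 regions were opened and 1795 closed, and 1231 neighborhoods were higher and 714 lower. Chromosomes past the threshold numbered 0, 13 with short lists and 15 with all peaks (0 with 1 library left out). The motif measures past it fell from 9 to 0 with 1 library left out, where the exact test of 3 against 4 libraries cannot go below 0.0571. The difference in number of peaks ranged from -3181 to 9462 with 1 library left out.

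Reversed values were log2 differences of -0.15 for Hpcal1 with 50% cover, 0.079 for Tgfa and -0.070 for Cebpe with all peaks, and 0.45 for Fcgr1 and -0.61 for Il1r2 with short lists. Reversed shares, in percentage points, were -0.109 for chromosome 1 and 0.205 for WGATAR with short lists, 0.0240, 0.121 and 0.0216 for chromosomes 5, 6 and 7 with all peaks, and 0.00748 for chromosome 2 without hi-77-/- 9aa-Ins replicate 2 (-0.177 to 0.00748 with 1 library left out). The causes were not tested.

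Of the 65 named neighborhoods past the limma threshold that were checked, calls were lost without a reversal of sign for 39 with all deposited peaks and 19 with the replicate block. Some other called genes named in the text were not checked. They were also lost for 18 with the -log10 q minimum, 17 with short lists, 14 with peaks under 1 kb, 8 with 50% cover, 6 by gene body and 2 with a pseudocount of 0.1. The reversals given above, 2 with short lists and 2 with all deposited peaks, come on top of these. The 2 with short lists, Fcgr1 and Il1r2, were not past the threshold. Some named neighborhoods were not tested with short lists. When 1 library was left out 0 reversed and 12 lost the call without at least 1 library. They were Eomes (without any of the 8 libraries), Mpo, Tgfa, Il6st, H2-Oa, Tlr2 and Mitf (6 of 8 each), Cd34 and Gm15319 (5 each), Cebpe and Elf4 (4 each, all of them 9aa-Ins libraries) and Gata3 (2, 9aa-Ins replicates 2 and 3). The highest limma adjusted p among them was 0.111, for Tgfa without hi-77+/+ empty replicate 3, followed by 0.107 for Mpo without 9aa-Ins replicate 2, and those of Gata3 reached 0.055.

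Same-numbered libraries did not deviate together (correlations of -0.0255 to 0.0128 over neighborhoods and -0.0939 to 0.0222 over windows), and so the numbers were not taken as a pairing. The replicate block gave 778 higher and 579 lower neighborhoods and 509 and 283 windows, and the difference in number of peaks had p = 0.875 in the paired exact sign-flip test.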
